A study of Homo sapiens with 12 samples.

Results

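The genes of fatty acid and triglyceride synthesis were followed in 4 stable HepG2 lines. They form a list of 35 symbols, matched by name among 26485 genes in the deposited counts, and all 35 were found. Of these, 32 were among the 15289 genes with enough counts to be tested. The other 3 (ME1, SCD5 and THRSP) were at or near 0 counts in every library. The members carry the pathway from citrate to stored triglyceride: 6 supply acetyl-CoA, malonyl-CoA or NADPH or build palmitate, 7 elongate acyl chains, 5 desaturate them, 4 activate free fatty acids, 9 assemble or remodel glycerolipids, and 4 regulate the pathway.

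RNA was sequenced from HepG2, an established human hepatoma line that keeps many features of hepatocytes. The 3 lines Z2, Z5 and Z9 had been transfected with a CRISPR vector against ZHX3, a zinc finger and homeobox transcription factor, and are labelled ZHX3-depleted (guides sgZHX3-2, sgZHX3-5 and sgZHX3-9 in that order). The fourth line, Empty, received the empty CRISPR vector and is labelled wild type. All 4 lines were lipofected, selected with blasticidin and grown in low-glucose DMEM with fetal bovine serum, and each was seeded in 3 wells (a, b and c), which gives 12 libraries. Each line exists once, so a difference between lines cannot be told apart from the history of that line. The error behind each p-value is the spread of wells seeded from 1 line, which may be technical. The Empty vector stands for 1 line as well, and every comparison with it rests on the same 3 libraries.

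Cytosolic citrate is split by ACLY into acetyl-CoA, which acetyl-CoA carboxylase (ACACA, ACACB) turns into malonyl-CoA and fatty acid synthase (FASN) into palmitate. Elongases (ELOVL) and desaturases (SCD, FADS) in the endoplasmic reticulum lengthen and unsaturate the chain, long-chain acyl-CoA synthetases (ACSL) activate free fatty acids, and acyltransferases with the lipins and DGAT enzymes build triglyceride. In liver the program is driven by the insulin-responsive factor SREBP-1c, encoded by SREBF1, and by the glucose-responsive factor ChREBP, encoded by MLXIPL.

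Library totals ran between 50864744 and 65428204 counts. ZHX3 itself averaged 34.5 ± 0.62 CPM in Z2, 32.9 ± 0.51 CPM in Z5, 34.3 ± 0.71 CPM in Z9 and 33.0 ± 0.42 CPM in Empty (SD, n = 3 each; CPM scales counts to a common library total). Gene-level counts do not show small insertions or deletions, so they do not check the depletion, and the lines are called here by their labels. Hepatocyte markers were high in every line: ALB, the albumin gene, averaged 11480.2 CPM in Z5, the lowest mean of the 3 labelled lines, and 17529 CPM in Empty. Of the 12 markers tested, 3 were higher and 3 lower in the mean of the labelled lines than in Empty. Of the marker lists of other cells, PTPRC and CD3E (leukocytes), KDR (endothelium), DCN and LUM (fibroblasts) and ADIPOQ and LEP (adipocytes) were at or near 0 counts, while CD68 of the leukocyte list averaged 61.1 CPM in Z2, 56.6 CPM in Z5, 56.0 CPM in Z9 and 46.7 CPM in Empty. PECAM1 of the endothelial list averaged 5.68 CPM in Z2, 4.64 CPM in Z5, 5.80 CPM in Z9 and 5.11 CPM in Empty, CIDEC of the adipocyte list 4.72 CPM in Z2, 4.51 CPM in Z5, 3.22 CPM in Z9 and 4.49 CPM in Empty, and CD14 of the leukocyte list 1.31 CPM in Z2, 1.26 CPM in Z5, 0.769 CPM in Z9 and 1.01 CPM in Empty. Of 25 cell division genes, 24 were lower and 0 higher in the mean of the labelled lines than in Empty (median log2 fold change -0.39). Of all tested genes, 12.6% were lower and 13% higher in that comparison. The summed level of the cell division genes was 1253 to 1447 CPM in Z2, 1268 to 1516 CPM in Z5, 1255 to 1399 CPM in Z9 and 1546 to 1977 CPM in Empty, and its part in the results below was not tested.

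Taken over all members, the pathway had no common direction in Z2 or Z5 and leaned lower in Z9. In edgeR's quasi-likelihood test, with p-values adjusted by Benjamini and Hochberg over all 15289 genes and a threshold of 0.05, 4 members were higher and 5 lower in Z2 than in Empty, where 12.4% and 11.5% of all tested genes were called in those directions. In Z5, 2 members were higher and 3 lower, against 8.27% and 6.68% of all genes. In Z9, 5 were higher (15.6% of members, 9.66% of all genes) and 11 lower (34.4% of members, 9.58% of all genes). The median log2 fold change of the members was 0.01 for Z2, 0.08 for Z5 and -0.15 for Z9, while the medians of all genes lay within 0.01 of 0. For the mean of the 3 labelled lines against Empty, 4 members (12.5%) were higher and 6 (18.8%) lower, against 13% and 12.6% of all genes. For Z2 and Z5 these counts stood near the share of all genes called, and the lower count in Z9 stood above it. The members were chosen with earlier results of these data known, so that excess is described and is not a test of the pathway. Single libraries moved these counts: in Z9, 7 members were lower and 2 higher without Empty b or without Z9 a, and 6 lower and 4 higher without Empty c. In Z5 the 5 calls became 2 without Z5 b or Z5 c, 3 without Empty a, Empty b or Z9 b, and 8 without Z2 b, and the 10 calls for the mean became 6 without Empty b. Shares of all genes called in those fits are not given here.

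**Figure D1:**
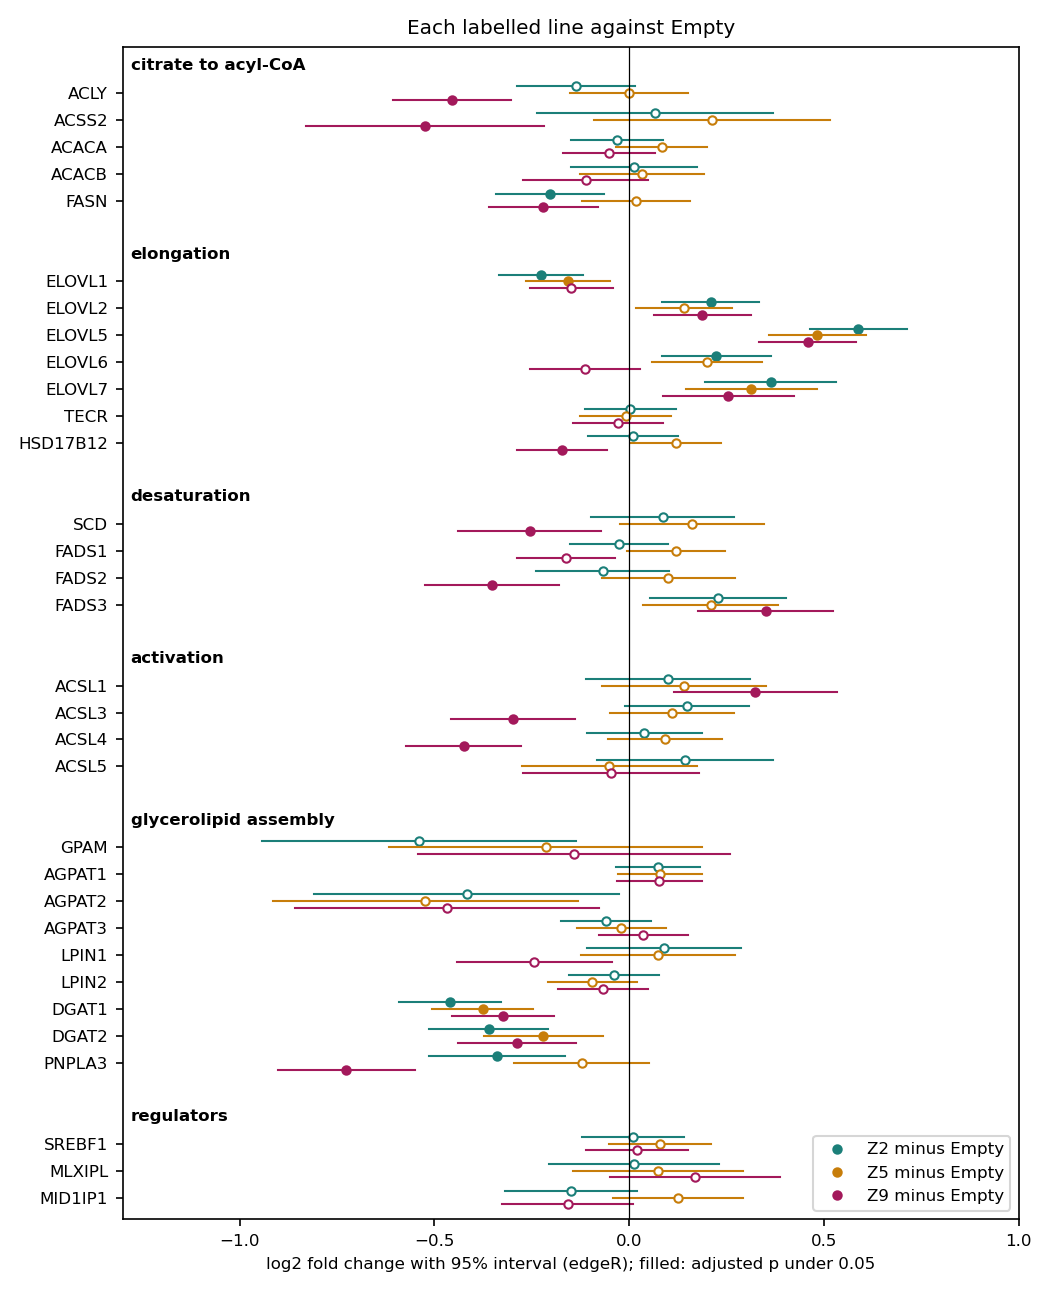
Log2 fold changes of the 32 tested members in Z2, Z5 and Z9 against Empty (x axis, log2; lines are 95% intervals from edgeR, n = 3 wells a line), grouped by role, with filled points for an adjusted p under 0.05. ELOVL5 lies to the right of 0 and DGAT1 and DGAT2 to the left in all 3 lines, and the Z9 points of ACLY, ACSS2, ACSL3, ACSL4 and PNPLA3 lie left of the Z2 and Z5 points.

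The 32 tested members spanned a wide range of levels, which are set against each other here as CPM per kilobase of exon (GENCODE release 29; the annotation the authors counted on is not given in the sources used here). SCD, the stearoyl-CoA desaturase that makes oleate, had the highest level in every line, at 580.3 ± 58.7 CPM per kb in Z2, 611 ± 55.1 CPM per kb in Z5, 458 ± 35.9 CPM per kb in Z9 and 547 ± 47.8 CPM per kb in Empty (SD, n = 3 each). FASN came next, at 175 CPM per kb in Z2, 204 in Z5, 173 in Z9 and 202 in Empty. In Empty, ACSL4 at 111 ± 6.22, ACLY at 100.4 ± 6.52 and ACSL3 at 95.9 ± 9.29 CPM per kb were neighbours in the order. ACSL4 lay above ACLY in all 12 wells, by 9.50 to 10.6 CPM per kb in Empty, while ACLY lay above ACSL3 in all 3 Empty wells and in 4 of 12 wells in all. These were followed by a step down to ACSL5 at 35.9 ± 3.97 and ELOVL2 at 35.4 ± 0.78 CPM per kb, whose order differed between the Empty wells. Well a was the lowest of its line in all 4 lines for 12 of the 32 members, ACLY, ACSS2, ACACA, FASN and SCD among them, and well b or c for 0. The members' share of all counts was likewise lowest in well a of each line, so wells with the letter a moved together for these genes. The same count over all genes was not made. Deviations of a wells also correlated over all tested genes (0.110 to 0.379 in 6 pairs), so nothing particular to the members is read from it. ACACB, the mitochondria-associated carboxylase, was the lowest of the tested members at 1.31 ± 0.05 CPM per kb in Empty, where ACACA stood at 13.2 ± 0.70 CPM per kb.

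**Figure D2:**
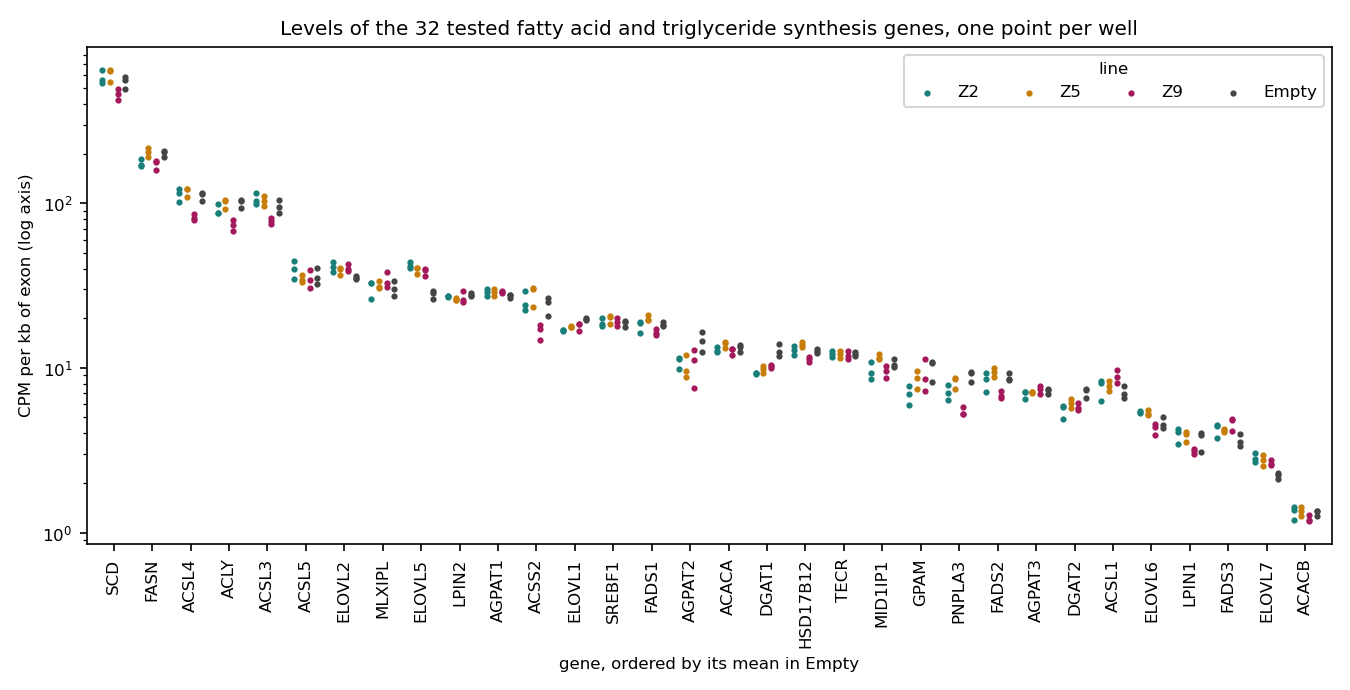
Level of each of the 32 tested members in every well, as CPM per kb of exon on a log axis, ordered by the mean in Empty, with Z2, Z5, Z9 and Empty from left to right for each gene. SCD and FASN stand above the other members in every well, and the Z9 means lie lowest for SCD, ACSL4, ACLY and ACSL3.

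The members took 0.904% ± 0.048 of all counts in Z2, 0.960% ± 0.052 in Z5, 0.793% ± 0.032 in Z9 and 0.908% ± 0.053 in Empty (SD, n = 3 each). The 3 Z9 wells held 0.760% to 0.825% of counts in the pathway, and the lowest well of another line, Empty a, held 0.850%. SCD and FASN together made up 50.3% to 54.5% of the pathway's counts in a well.

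In the steps from citrate and acetate to palmitate, ACLY and ACSS2 were lower in Z9 than in every other line, FASN was lower in Z2 and Z9 than in Empty, and the acetyl-CoA carboxylases passed the test in no line. ACLY, ATP citrate lyase, was at 456, 457 and 517 CPM in Z2, 483, 542 and 546 CPM in Z5, 352, 412 and 383 CPM in Z9, and 485, 537 and 549.7 CPM in Empty. All 3 Z9 wells lay below the 9 other wells. ACLY was 0.730 times as high in Z9 as in Empty (95% interval 0.657 to 0.811; log2 fold change -0.45 ± 0.07 SE, edgeR adjusted p = 2.65e-04), and its log2 fold change was -0.14 in Z2 (adjusted p = 0.181) and 0.00 in Z5 (adjusted p = 0.998). ACSS2, the cytosolic acetyl-CoA synthetase that uses acetate, stood at 120.3, 129.7 and 158 CPM in Z2, 126, 162 and 164 CPM in Z5, 79.5, 98.0 and 93.4 CPM in Z9, and 111, 135 and 144 CPM in Empty. Its Z9 wells again lay below all others, while Z2, Z5 and Empty overlapped. The log2 fold change of ACSS2 in Z9 against Empty was -0.52 ± 0.14 (edgeR adjusted p = 0.0223), and without Empty b, Empty c or Z9 a it no longer passed (adjusted p up to 0.0637).

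FASN had 1580.1, 1606 and 1736 CPM in Z2, 1797, 1922 and 2019 CPM in Z5, 1490.5, 1699 and 1675 CPM in Z9, and 1780.0, 1959 and 1926 CPM in Empty. The Z2 and Z9 wells lay below the Empty wells, whereas Z5 overlapped Empty. Its log2 fold change was -0.20 ± 0.07 in Z2 (edgeR adjusted p = 0.0334) and -0.22 ± 0.07 in Z9 (adjusted p = 0.0263). Both calls were lost without single wells, with adjusted p up to 0.118 in Z2 (without Empty b, Empty c, Z2 a or Z2 b) and up to 0.125 in Z9 (without Empty b, Empty c or Z9 a). ACACA, the cytosolic carboxylase that sets the rate of synthesis, measured 163, 165 and 175 CPM in Z2, 173, 185 and 187 CPM in Z5, 157, 171 and 169 CPM in Z9, and 161, 179 and 174 CPM in Empty. Its wells overlapped between Empty and each other line, and the 95% interval of its log2 fold change was -0.15 to 0.09 in Z2, -0.03 to 0.20 in Z5 and -0.17 to 0.07 in Z9. ACACB ranged over 17.0 to 20.7 CPM in the labelled lines and over 18.1 to 19.6 CPM in Empty and passed the test in no comparison. ME1, the malic enzyme that yields NADPH, had 2 counts in all 12 libraries together, both in Z5 a. A count of 0 in the Empty libraries allows at most 0.046 to 0.0589 CPM (3 counts, counting error only).

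Several elongases were higher than in Empty. Of the 7 elongation genes tested, 4 were higher and 1 lower in Z2, 2 higher and 1 lower in Z5, and 3 higher and 1 lower in Z9. Of all genes, 12.4% were higher and 11.5% lower in Z2, 8.27% and 6.68% in Z5, and 9.66% and 9.58% in Z9, and with 7 genes nothing particular to the elongases is read from these counts. Their median log2 fold change was 0.21 for Z2, 0.14 for Z5 and -0.03 for Z9. The promoters of the elongases that passed in all 4 comparisons with Empty (ELOVL5 and ELOVL7), and of ELOVL1, which moved the opposite way, are printed for comparison: the 250 bases before the RefSeq start of each gene (GRCh38.p14, 5′ to 3′ on the gene's strand, which is the minus strand for all 3). ELOVL5 is at chr6:53348951-53349200, ELOVL7 at chr5:60844270-60844519 and ELOVL1 at chr1:43368012-43368261. Capitals mark matches on either strand to 4 motifs: TCACNCCAC, the core of a sterol regulatory element, CACGTG, an E-box, CCAAT, which reads ATTGG on the opposite strand, and GGGCGG, a GC box that reads CCGCCC there.
ELOVL5: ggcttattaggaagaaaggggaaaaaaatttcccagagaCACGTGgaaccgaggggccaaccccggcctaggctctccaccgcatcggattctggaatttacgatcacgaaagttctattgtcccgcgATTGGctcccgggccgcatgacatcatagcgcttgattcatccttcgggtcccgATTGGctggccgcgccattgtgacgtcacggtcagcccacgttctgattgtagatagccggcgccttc
ELOVL7: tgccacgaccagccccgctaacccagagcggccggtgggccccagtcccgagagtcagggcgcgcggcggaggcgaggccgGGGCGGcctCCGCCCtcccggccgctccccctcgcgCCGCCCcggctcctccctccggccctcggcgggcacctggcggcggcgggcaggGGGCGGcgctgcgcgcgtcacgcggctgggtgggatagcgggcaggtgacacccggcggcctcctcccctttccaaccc
ELOVL1: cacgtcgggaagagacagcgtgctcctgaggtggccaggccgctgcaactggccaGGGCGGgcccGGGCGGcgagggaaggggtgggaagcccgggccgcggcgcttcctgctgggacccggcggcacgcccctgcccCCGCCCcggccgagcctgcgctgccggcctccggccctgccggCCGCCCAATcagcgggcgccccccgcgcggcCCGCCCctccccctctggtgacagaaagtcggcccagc
The ELOVL5 window held an E-box and CCAAT on the opposite strand and no GC box. The ELOVL7 window held GC boxes and none of the other 3 motifs, and the ELOVL1 window held GC boxes and a CCAAT that overlaps one of them by 2 bases. RefSeq gave a window of 300 bases (250 before and 50 after the start) for 30 of the 35 members, 50 windows in all with alternative starts. Across these, 2 windows (4%) held the sterol element core, 2 (4%) the E-box, 23 (46%) CCAAT and 35 (70%) the GC box, against 1.13%, 7.26%, 34.6% and 45% of all 35116 windows. The sterol element core was found in windows of ACSL1 and MID1IP1 and the E-box in windows of ELOVL5 and LPIN2. FASN, HSD17B12, DGAT1, DGAT2 and PNPLA3 had no window, so their promoters were neither searched nor printed. A match describes the letters in the window and no more.

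ELOVL5, which elongates polyunsaturated fatty acids, stood at 154, 159.5 and 168 CPM in Z2, 141, 153 and 153 CPM in Z5, 137, 152 and 150.2 CPM in Z9, and 99.8, 109 and 111 CPM in Empty. All 9 wells of the labelled lines lay above the 3 Empty wells. It was 1.504 times as high in Z2 as in Empty (95% interval 1.38 to 1.64, log2 fold change 0.59 ± 0.06 SE, edgeR adjusted p = 2.03e-06), 1.40 times in Z5 (1.28 to 1.52, 0.48 ± 0.06, adjusted p = 2.11e-05) and 1.37 times in Z9 (1.26 to 1.497, 0.46 ± 0.06, adjusted p = 3.09e-05). ELOVL7, an elongase of saturated and polyunsaturated chains, read 12.9, 13.9 and 12.3 CPM in Z2, 11.6, 12.6 and 13.6 CPM in Z5, 11.9, 12.6 and 11.8 CPM in Z9, and 10.2, 9.62 and 10.6 CPM in Empty. Here too all 9 wells were above Empty. Its log2 fold changes were 0.36 in Z2, 0.31 in Z5 and 0.25 in Z9, each ± 0.08 (edgeR adjusted p = 0.00359, 0.0137 and 0.034). The Z5 call was lost without Empty b, Z5 b or Z5 c (adjusted p up to 0.097) and the Z9 call without Empty a, Empty b or any Z9 well (up to 0.128).

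ELOVL2, which elongates long polyunsaturated chains towards docosahexaenoate, was at 163, 175 and 152 CPM in Z2, 161, 147 and 159.7 CPM in Z5, 170.0, 158 and 155 CPM in Z9, and 145, 139 and 141 CPM in Empty. The 9 wells lay above Empty by narrow gaps. It was higher in Z2 (log2 fold change 0.21 ± 0.06, edgeR adjusted p = 0.0162) and Z9 (0.19 ± 0.06, adjusted p = 0.0336), with 0.14 ± 0.06 in Z5 (adjusted p = 0.121). Leaving out Empty b or Empty c ended the Z2 call (adjusted p up to 0.0598), and leaving out any Empty well, Z9 a or Z9 b ended the Z9 call (up to 0.137). ELOVL6, the elongase that carries palmitate to stearate, gave 39.6, 38.9 and 39.8 CPM in Z2, 37.8, 40.5 and 38.1 CPM in Z5, 28.5, 33.3 and 31.8 CPM in Z9, and 31.7, 32.9 and 36.6 CPM in Empty. The Z2 and Z5 wells lay above Empty, and the Z9 wells overlapped Empty and lay below all Z2 and Z5 wells. Against Empty the log2 fold change was 0.22 ± 0.07 in Z2 (edgeR adjusted p = 0.0216, up to 0.113 without Empty a, Empty b or Z2 c), 0.20 ± 0.07 in Z5 (adjusted p = 0.0519) and -0.11 ± 0.07 in Z9 (adjusted p = 0.253).

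ELOVL1, which makes very long saturated and monounsaturated chains, went the other way. It was at 42.8, 42.0 and 42.7 CPM in Z2, 45.1, 44.4 and 44.2 CPM in Z5, 41.8, 46.5 and 46.3 CPM in Z9, and 49.0, 49.9 and 50.2 CPM in Empty. All 9 wells lay below Empty. The log2 fold change was -0.23 ± 0.05 in Z2 (edgeR adjusted p = 0.00431), -0.16 ± 0.05 in Z5 (adjusted p = 0.0472) and -0.15 ± 0.05 in Z9 (adjusted p = 0.0507). The Z5 call was lost without any Empty well, any Z5 well, Z9 b or Z9 c (adjusted p up to 0.135). As a share of the summed level of the 5 elongases per kb, ELOVL5 took 38.9% ± 1.83 in Z2, 37.6% ± 1.59 in Z5, 37.1% ± 1.49 in Z9 and 31.1% ± 1.32 in Empty (SD, n = 3 each). ELOVL1 took 15.7% ± 0.48 in Z2, 17.1% ± 0.41 in Z5, 17.3% ± 0.76 in Z9 and 22.0% ± 0.17 in Empty, so the make-up of the family differed in both genes by more than the spread between wells. HSD17B12, the 3-ketoacyl-CoA reductase of the elongation cycle, ranged over 93.6 to 106 CPM in Z2, 105 to 112 CPM in Z5, 84.9 to 91.2 CPM in Z9 and 96.2 to 103 CPM in Empty, lowest in the Z9 wells. It was lower in Z9 than in Empty (-0.17 ± 0.05, edgeR adjusted p = 0.0355), a call that leaving out any Empty or Z9 well ended (adjusted p up to 0.127). TECR, the reductase of the last step, ranged over 66.6 to 74.9 CPM in the labelled lines and 69.9 to 73.7 CPM in Empty, with 95% intervals of the log2 fold change within -0.15 to 0.12.

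Among the desaturases, SCD and FADS2 were lower in Z9 than in Empty and FADS3 was higher, and no desaturase passed the test in Z2 or Z5. SCD had 2866, 3001 and 3467 CPM in Z2, 2939, 3479.6 and 3416 CPM in Z5, 2261, 2645 and 2460.0 CPM in Z9, and 2644, 3013 and 3137 CPM in Empty. The Z9 wells lay below the Z2 and Z5 wells and met the lowest Empty well. The log2 fold change of SCD in Z9 was -0.26 ± 0.09 (edgeR adjusted p = 0.0494), and leaving out Empty b, Empty c, Z2 b, Z5 b, Z5 c, Z9 a or Z9 c raised the adjusted p over the threshold, up to 0.178. A filter of at least 1 CPM in 3 libraries also ended that call of SCD (adjusted p = 0.0575). SCD5, its paralogue, had 0 to 2 counts in any library.

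FADS1, FADS2 and FADS3 lie side by side within 92598 bases of chromosome 11 (GRCh38.p14: FADS1 at 61799627 to 61817003 on the minus strand, FADS2 at 61816203 to 61867354 on the plus strand, FADS3 at 61873526 to 61892224 on the minus strand). FADS1 and FADS2 overlap by 801 bases on opposite strands. Whether counting used strand is not given in the sources used here, and the assignment of reads in that overlap is therefore uncertain. FADS2, the delta-6 desaturase that opens polyunsaturated fatty acid synthesis, measured 94.3, 78.4 and 103 CPM in Z2, 97.0, 109 and 104 CPM in Z5, 74.0, 80.1 and 72.2 CPM in Z9, and 92.9, 94.1 and 102 CPM in Empty. The Z9 wells lay below Empty and Z5 and overlapped Z2 through well Z2 b. In Z9 the log2 fold change was -0.35 ± 0.08 (edgeR adjusted p = 0.00608). FADS3, a desaturase that acts on sphingoid bases, measured 28.0, 23.6 and 28.2 CPM in Z2, 26.6, 25.8 and 26.4 CPM in Z5, 30.2, 30.6 and 26.1 CPM in Z9, and 22.2, 21.0 and 24.9 CPM in Empty. Z5 and Z9 wells were above Empty, and Z2 overlapped it through well Z2 b. Its log2 fold change was 0.35 ± 0.08 in Z9 (edgeR adjusted p = 0.00621), 0.23 ± 0.08 in Z2 (adjusted p = 0.0538) and 0.21 ± 0.08 in Z5 (adjusted p = 0.0986). FADS1, the delta-5 desaturase, ranged over 167 to 194 CPM in Z2, 199 to 214 CPM in Z5, 162 to 175 CPM in Z9 and 184 to 194 CPM in Empty, with a log2 fold change of -0.16 ± 0.06 in Z9 (edgeR adjusted p = 0.0677).

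FADS2 and FADS3, neighbours that were called in opposite directions in Z9, have the following stretches before a RefSeq start (250 bases, GRCh38.p14, 5′ to 3′ on the gene's strand, capitals as for the elongases). FADS2 is at chr11:61816154-61816403 on the plus strand, the second of its 2 starts, and FADS3 at chr11:61891546-61891795 on the minus strand. By the gene spans above, the FADS3 stretch lies inside its gene, and so does most of the FADS2 stretch. The 250 bases before the first FADS2 start (chr11:61815953-61816202) held none of the motifs and are not printed.
FADS2: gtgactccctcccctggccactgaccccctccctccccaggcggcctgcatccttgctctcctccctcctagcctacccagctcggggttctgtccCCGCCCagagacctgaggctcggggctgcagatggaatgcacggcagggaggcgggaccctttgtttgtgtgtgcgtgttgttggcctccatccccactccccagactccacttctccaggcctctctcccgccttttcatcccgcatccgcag
FADS3: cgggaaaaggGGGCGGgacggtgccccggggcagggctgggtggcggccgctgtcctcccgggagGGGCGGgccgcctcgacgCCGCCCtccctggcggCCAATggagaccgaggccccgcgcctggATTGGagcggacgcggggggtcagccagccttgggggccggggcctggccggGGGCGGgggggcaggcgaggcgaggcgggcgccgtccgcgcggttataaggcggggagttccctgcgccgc
The FADS3 stretch held GC boxes and CCAAT on both strands. The FADS2 stretch held a GC box on the opposite strand. Neither held the sterol element core or the E-box in these letters.

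Of the acyl-CoA synthetases, which trap free fatty acids as acyl-CoA, ACSL3 and ACSL4 were lower and ACSL1 higher in Z9, and none passed the test in Z2 or Z5. ACSL4, which prefers arachidonate and other polyunsaturated chains, stood at 656, 786 and 745 CPM in Z2, 701, 786 and 783 CPM in Z5, 507, 555 and 523 CPM in Z9, and 664, 728 and 737 CPM in Empty. ACSL3, found on the endoplasmic reticulum and lipid droplets, stood at 718, 748 and 842 CPM in Z2, 699, 804 and 744 CPM in Z5, 567, 589 and 539.5 CPM in Z9, and 628, 692 and 763 CPM in Empty. For both genes the Z9 wells lay below the 9 other wells, and the other 3 lines overlapped. ACSL4 was 0.745 times as high in Z9 as in Empty (95% interval 0.673 to 0.825, edgeR adjusted p = 3.67e-04). ACSL3 was 0.814 times as high (0.729 to 0.909, edgeR adjusted p = 0.0106), a call lost without Empty c or Z9 c (adjusted p up to 0.0563). ACSL1, the main isoform of hepatocytes and adipocytes, ranged over 39.8 to 52.3 CPM in Z2, 45.8 to 52.7 CPM in Z5, 51.0 to 60.7 CPM in Z9 and 41.2 to 48.7 CPM in Empty. Its Z9 wells lay above Empty, and the log2 fold change in Z9 was 0.32 ± 0.10 (edgeR adjusted p = 0.0322, up to 0.118 without Empty a, Empty b, Z9 a or Z9 b). Per kb of exon, ACSL1 made up 2.86% ± 0.53 of the 4 synthetases in Z2, 2.96% ± 0.22 in Z5, 4.35% ± 0.47 in Z9 and 2.84% ± 0.24 in Empty. ACSL5 ranged over 130.1 to 189 CPM in the labelled lines and 137 to 170.4 CPM in Empty, with log2 fold changes of 0.14 (Z2), -0.05 (Z5) and -0.05 (Z9), and passed in no comparison.

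The genes of the last step of triglyceride assembly, DGAT1 and DGAT2, were lower in all 3 labelled lines. Of the 9 glycerolipid genes tested, 0 were higher, and 3 were lower in Z2, 2 in Z5 and 3 in Z9, with a median log2 fold change of -0.34 in Z2, -0.12 in Z5 and -0.24 in Z9. The share of all genes called lower was 11.5% for Z2, 6.68% for Z5 and 9.58% for Z9. With 9 genes, nothing particular to this step is read from these counts. DGAT1, the acyl-CoA:diacylglycerol acyltransferase that re-esterifies incoming fatty acids, was at 38.7, 38.0 and 38.3 CPM in Z2, 42.3, 38.6 and 40.9 CPM in Z5, 42.8, 42.4 and 41.0 CPM in Z9, and 58.1, 48.5 and 51.6 CPM in Empty. DGAT2, the unrelated enzyme of the same step that is linked to newly made fatty acids, was at 45.6, 38.8 and 46.6 CPM in Z2, 51.0, 48.4 and 45.1 CPM in Z5, 45.3, 48.6 and 43.9 CPM in Z9, and 58.6, 52.0 and 57.6 CPM in Empty. For both genes all 9 wells of the labelled lines lay below the 3 Empty wells. DGAT1 was 0.727 times as high in Z2 as in Empty (95% interval 0.664 to 0.797, edgeR adjusted p = 5.56e-05), 0.770 times in Z5 (0.704 to 0.843, adjusted p = 4.82e-04) and 0.799 times in Z9 (0.730 to 0.874, adjusted p = 0.00139). The log2 fold changes of DGAT2 were -0.36 in Z2, -0.22 in Z5 and -0.29 in Z9, each ± 0.07 (edgeR adjusted p = 0.00188, 0.0483 and 0.00956). The DGAT2 call in Z5 was lost without Empty a, Empty c, Z5 b, Z5 c or any Z9 well (adjusted p up to 0.206) and in Z9 without Empty a (0.0526). Per kb, DGAT1 made up 62.7% ± 2.18 of the pair in Z2, 61.7% ± 1.56 in Z5, 63.7% ± 1.04 in Z9 and 64.2% ± 1.17 in Empty, ranges that overlap. By gene span in the GENCODE annotation, DGAT1 overlaps the protein-coding gene HSF1, PNPLA3 SAMM50, ACSS2 GGT7, ACACA C17orf78, TECR DNAJB1, ACSL4 KCNE5, ACSL5 ZDHHC6, AGPAT1 EGFL8, SREBF1 RAI1 and FADS2 both FEN1 and FADS1. THRSP, which could not be tested, overlaps NDUFC2 and NDUFC2-KCTD14 by gene span. Any reads from a stretch that such a pair shares are of uncertain origin, and overlap of their exons was not examined.

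PNPLA3, the lipid droplet protein with lipase and acyltransferase activity, was at 20.6, 22.7 and 25.4 CPM in Z2, 24.1, 27.8 and 28.1 CPM in Z5, 17.0, 18.6 and 17.0 CPM in Z9, and 26.5, 30.0 and 30.5 CPM in Empty. The Z9 wells lay below every other well, the Z2 wells lay below Empty, and Z5 overlapped Empty. It was 0.605 times as high in Z9 as in Empty (95% interval 0.535 to 0.683; log2 fold change -0.73 ± 0.08, edgeR adjusted p = 1.03e-05), the largest change of any tested member in that comparison. In Z2 its log2 fold change was -0.34 ± 0.08 (adjusted p = 0.00695) and in Z5 -0.12 ± 0.08 (adjusted p = 0.35).

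Earlier steps of assembly gave fewer calls. AGPAT2, the lysophosphatidate acyltransferase needed for fat storage, ranged over 17.7 to 20.5 CPM in Z2, 15.9 to 21.4 CPM in Z5, 13.6 to 23.0 CPM in Z9 and 22.4 to 29.7 CPM in Empty. It passed for the mean of the 3 lines (log2 fold change -0.47 ± 0.14, edgeR adjusted p = 0.0319) and in no single line (adjusted p = 0.113 in Z2, 0.0733 in Z5 and 0.0913 in Z9). That call was lost without Empty b, Empty c, Z2 a or Z2 b (adjusted p up to 0.143) and with no filter on low counts beyond 1 count (0.075). GPAM, the mitochondrial glycerol-3-phosphate acyltransferase, ranged over 58.0 to 75.8 CPM in Z2, 73.3 to 93.9 CPM in Z5, 71.1 to 111 CPM in Z9 and 80.8 to 107 CPM in Empty, with a log2 fold change of -0.54 ± 0.18 in Z2 (edgeR adjusted p = 0.056). LPIN1, the phosphatidate phosphatase that also acts in the nucleus, ranged over 40.9 to 50.4 CPM in Z2, 42.3 to 48.6 CPM in Z5, 35.4 to 38.1 CPM in Z9 and 36.8 to 47.6 CPM in Empty. Its log2 fold change in Z9 was -0.24 ± 0.09 (edgeR adjusted p = 0.0804). AGPAT1, AGPAT3 and LPIN2 passed in no comparison, and their log2 fold changes against Empty lay between -0.09 (LPIN2 in Z5) and 0.08 (AGPAT1 in Z5 and Z9).

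**Figure D3:**
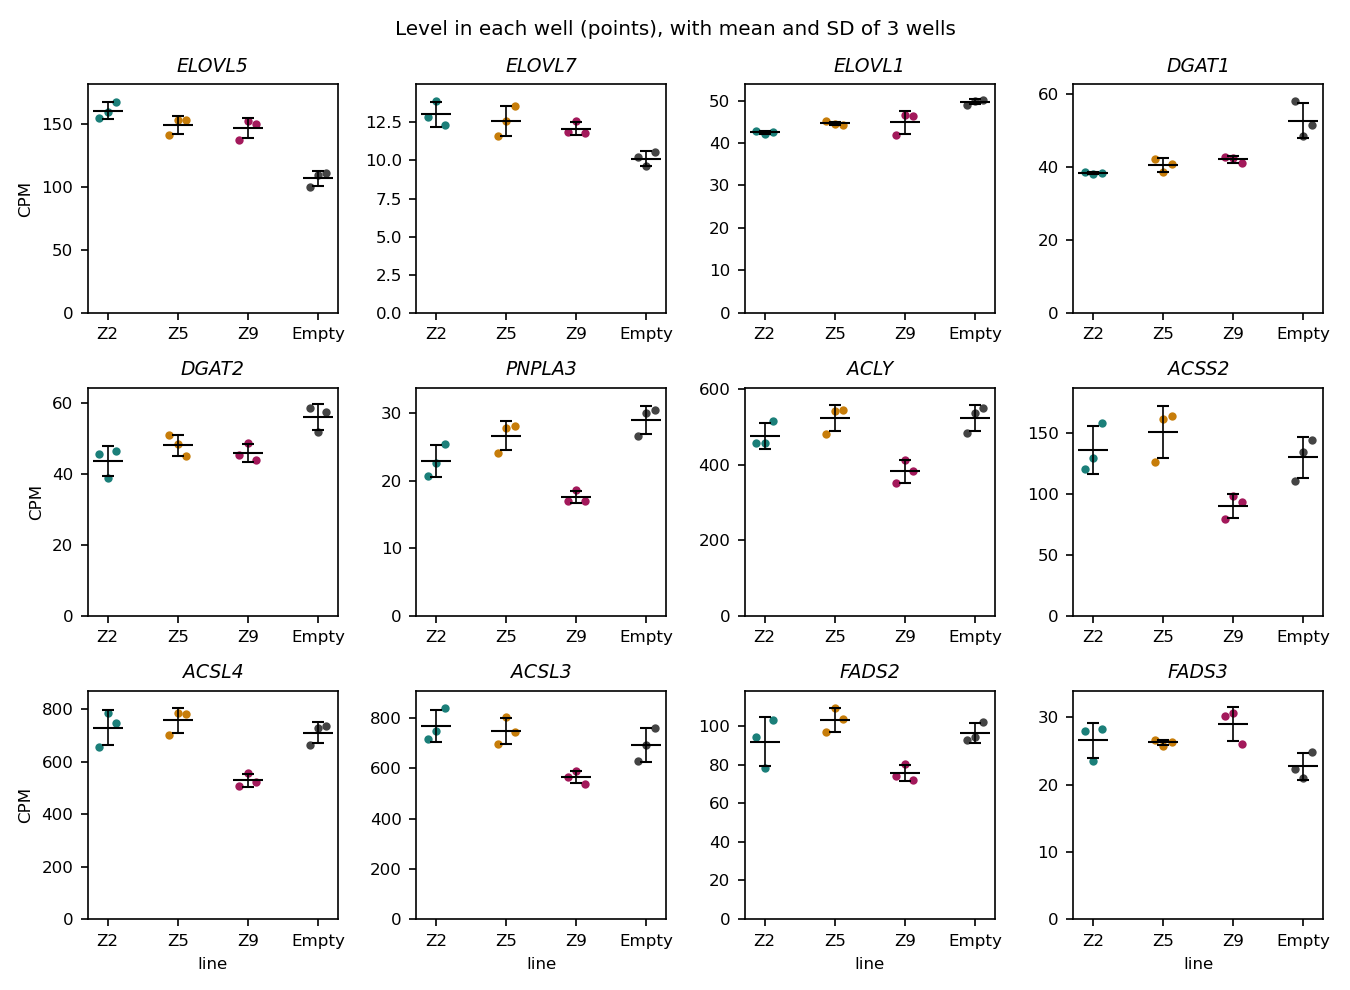
CPM of 12 members in each of the 3 wells of Z2, Z5, Z9 and Empty (points), with the mean and SD of the wells (bars), on axes that start at 0. ELOVL5 and ELOVL7 lie above Empty and ELOVL1, DGAT1 and DGAT2 below it in all 9 wells of the labelled lines, and the Z9 wells lie below all others for PNPLA3, ACLY, ACSS2, ACSL4 and ACSL3.

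None of the 3 tested regulators passed the test in any comparison. SREBF1 stood at 148, 144 and 162 CPM in Z2, 148, 163 and 165 CPM in Z5, 143, 161 and 152 CPM in Z9, and 142, 155 and 153 CPM in Empty. MLXIPL stood at 158, 126 and 158 CPM in Z2, 150.3, 163 and 148 CPM in Z5, 185, 158 and 149 CPM in Z9, and 146, 131 and 162 CPM in Empty. Both overlapped Empty in every line. The 95% interval of the log2 fold change of SREBF1 was -0.12 to 0.14 in Z2, -0.05 to 0.21 in Z5 and -0.11 to 0.15 in Z9, and that of MLXIPL -0.21 to 0.23 in Z2, -0.14 to 0.29 in Z5 and -0.05 to 0.39 in Z9. Gene counts do not separate SREBP-1c from the other products of SREBF1. MID1IP1, which promotes the polymerisation of acetyl-CoA carboxylase, ranged over 32.6 to 41.3 CPM in Z2, 42.8 to 45.9 CPM in Z5, 33.1 to 39.0 CPM in Z9 and 38.5 to 43.0 CPM in Empty, with log2 fold changes of -0.15 in Z2, 0.13 in Z5 and -0.16 in Z9. THRSP, its relative, had 2 to 7 counts in a library.

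With the 3 wells of a line summed and the lines themselves taken as the units (3 labelled lines against Empty alone), 3 of the 32 members passed for the mean, where 6.65% of all genes passed (3.95% higher and 2.69% lower), a share of members near that background. They were ELOVL5 (log2 fold change 0.50, edgeR adjusted p = 0.00398), DGAT1 (-0.38, adjusted p = 0.0166) and AGPAT2 (-0.48, adjusted p = 0.00661). Empty then contributes 1 unit, assumed to vary like the 3 labelled lines. The members that passed with wells as units and not there were ACLY (adjusted p = 0.542), ELOVL1 (0.222), ELOVL2 (0.227), ELOVL7 (0.101), FADS3 (0.139), DGAT2 (0.0578) and PNPLA3 (0.366). With wells as units, single libraries also ended the calls for the mean of ACLY and ELOVL2 (without Empty b or Empty c, adjusted p up to 0.0956 and 0.0663) and of FADS3 (without Empty a or Empty b, up to 0.0791).

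The lines labelled ZHX3-depleted were then compared with each other. Z9 was lower than both other lines in at least 1 gene of every role but the regulators, and no member passed the test between Z5 and Z2. In glycerolipid assembly this was PNPLA3 alone of 9 genes, and the median log2 difference of that role was 0.00 from Z2 and 0.03 from Z5. In elongation, 1 of 7 genes was lower than in Z2. Against Z2, 7 members were lower in Z9 and 0 higher (21.9% of members lower; 3.21% of all genes were lower and 1.96% higher). Against Z5, 10 members were lower and 0 higher (31.2% of members lower; 1.09% of all genes were lower and 0.432% higher). The median log2 difference of the members was -0.04 for Z9 minus Z2 and -0.06 for Z9 minus Z5, against 0.00 over all genes in both. Here too the members were chosen with earlier results known, so these shares do not test the pathway against other genes. No gene of the cell division list was called in either comparison.

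The 7 members lower in Z9 than in Z2 were also lower in Z9 than in Z5: ACLY, ACSS2, ELOVL6, SCD, ACSL3, ACSL4 and PNPLA3. ACSL4 differed by -0.46 ± 0.07 on the log2 scale from Z2 (edgeR adjusted p = 0.00285) and by -0.52 ± 0.07 from Z5 (adjusted p = 0.00131), and both calls held without any single well. PNPLA3 differed by -0.39 ± 0.08 from Z2 (adjusted p = 0.0231) and by -0.60 ± 0.08 from Z5 (adjusted p = 0.00161). ACLY differed by -0.32 ± 0.07 from Z2 (adjusted p = 0.0257) and by -0.45 ± 0.07 from Z5 (adjusted p = 0.00408). ACSL3 differed by -0.45 ± 0.08 from Z2 (edgeR adjusted p = 0.00745) and by -0.41 ± 0.08 from Z5 (adjusted p = 0.0124). In every well these genes were lower in Z9 than in either other line, and so were ACSS2 (-0.59 ± 0.14 from Z2, adjusted p = 0.0391, and -0.74 ± 0.14 from Z5, adjusted p = 0.0274), SCD (-0.34 ± 0.09, adjusted p = 0.0365, and -0.42 ± 0.09, adjusted p = 0.0258) and ELOVL6 (-0.34 ± 0.07, adjusted p = 0.0149, and -0.31 ± 0.07, adjusted p = 0.0258). Z9 was in addition lower than Z5 in FADS2 (-0.45 ± 0.08, edgeR adjusted p = 0.0108), HSD17B12 (-0.29 ± 0.05, adjusted p = 0.0124) and FADS1 (-0.28 ± 0.06, adjusted p = 0.0258).

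Several of these calls depended on single wells. From Z2, ACLY was lost without Z2 c, Z9 a or Z9 c (adjusted p up to 0.0981), ELOVL6 without Z9 a (0.0713) and PNPLA3 without Z2 c or any Z9 well (up to 0.0842). ACSS2 and SCD were lost there without Empty b, Z2 b, Z2 c, Z5 b or any Z9 well (up to 0.138 for ACSS2 and 0.139 for SCD). From Z5, ELOVL6, HSD17B12, SCD, FADS2 and ACSL3 were lost without Z5 b, Z5 c, Z9 a or Z9 c, with adjusted p up to 0.170 for ELOVL6, 0.104 for HSD17B12, 0.153 for SCD, 0.0837 for FADS2 and 0.104 for ACSL3. ACSS2 and FADS1 were lost without Z5 b, Z5 c or any Z9 well (up to 0.124 for ACSS2 and 0.183 for FADS1). The member count from Z2 fell to 2 without Z9 a and to 3 without Z2 c or Z9 c, and was 4 without Z9 b. From Z5 it was 3 without Z5 b, Z5 c, Z9 a or Z9 c. Shares of all genes called in these fits are not given here, so these falls are not read as particular to the members.

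**Figure D4:**
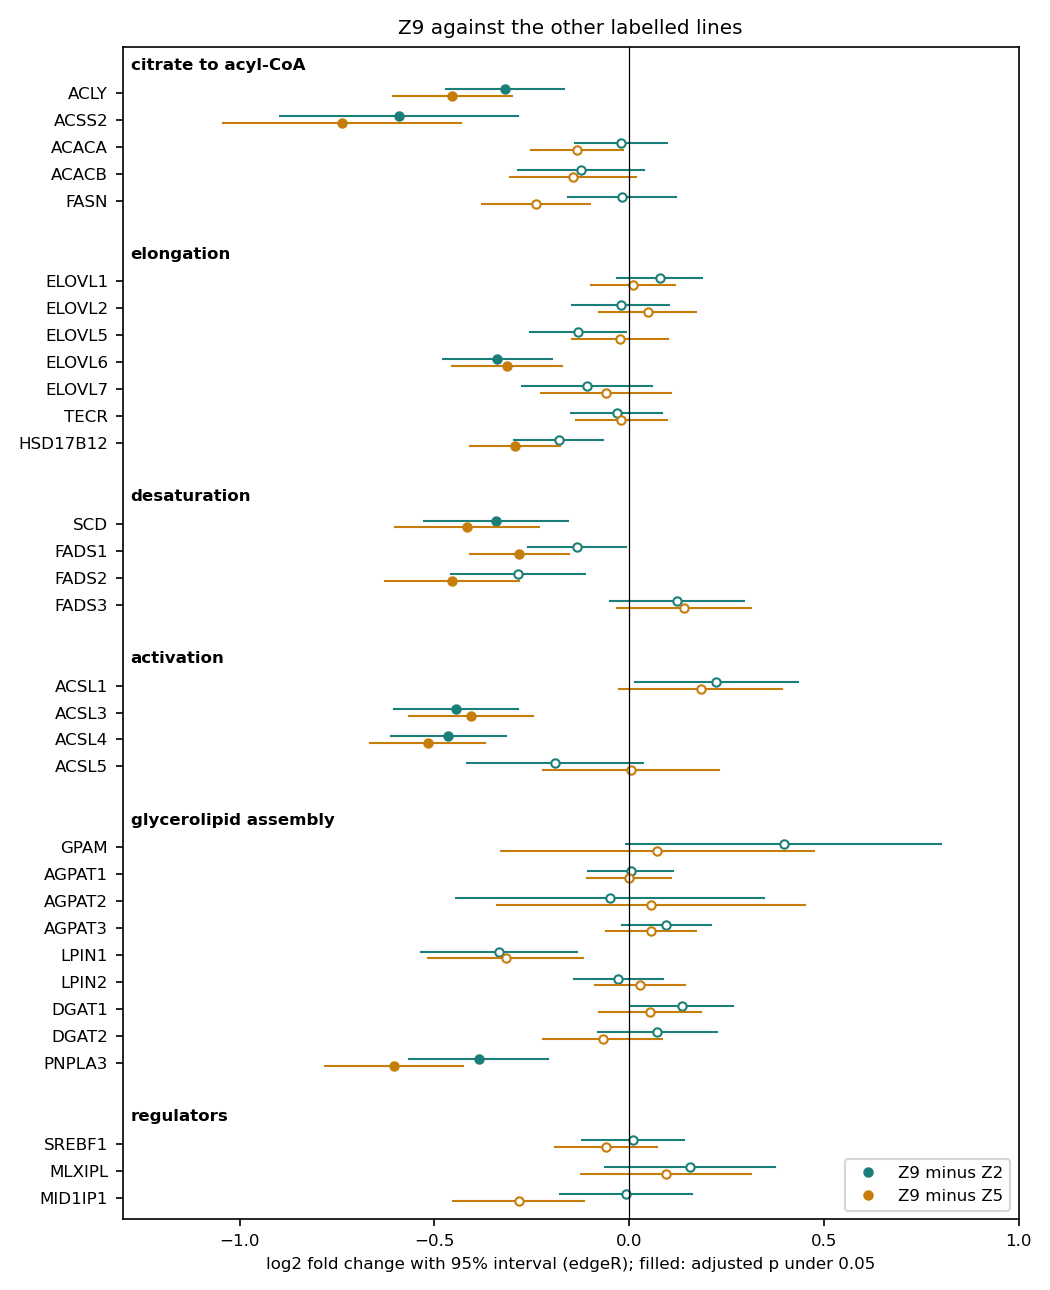
Log2 difference of Z9 from Z2 and from Z5 for the 32 tested members (x axis, log2; lines are 95% intervals from edgeR, n = 3 wells a line), grouped by role, with filled points for an adjusted p under 0.05. All filled points lie left of 0, and the intervals of ELOVL2 and DGAT2 span 0 in both comparisons.

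ELOVL5, ELOVL7, ELOVL1, ELOVL2, DGAT1 and DGAT2 passed the test in neither of these comparisons. Their log2 differences ran between -0.13 (ELOVL5 from Z2) and 0.14 (DGAT1 from Z2). Between Z5 and Z2, 0 of 32 members passed in edgeR, where 0.00654% of all genes were higher and 0% lower. At an unadjusted p under 0.05 there were 4 members (FASN, FADS1, PNPLA3 and MID1IP1, all higher in Z5), and DESeq2 called 0. The share of all genes at that unadjusted threshold was not counted, so nothing particular to the members is read from these 4. The log2 difference of FASN between Z5 and Z2 was 0.22 (95% interval 0.08 to 0.36) and that of MID1IP1 was 0.28 (0.11 to 0.44).

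Other genes around the pathway were counted from lists that hold no member. Each count is for the mean of the 3 labelled lines against Empty in edgeR, where 13% of all genes were higher and 12.6% lower and the median log2 fold change of all genes was 0.00. Of 14 other elongation and acyl chain genes tested, 1 was higher and 5 lower (median -0.03). ACSM3, a medium-chain acyl-CoA synthetase, averaged 8.62 CPM in Z2, 7.43 CPM in Z5, 8.16 CPM in Z9 and 5.37 CPM in Empty (log2 fold change 0.59 ± 0.09, adjusted p = 1.13e-04). DBI, which binds acyl-CoA, was lower (-0.27 ± 0.07, edgeR adjusted p = 0.00972, 0.0652 without Empty a), as was ACOT7, a thioesterase (-0.17 ± 0.05, adjusted p = 0.0115, up to 0.103 without Empty a or Empty b). Of 14 other glycerolipid genes, 2 were higher and 2 lower (median 0.00). GPD1, which makes glycerol-3-phosphate from a glycolytic intermediate, averaged 7.72 CPM in Z2, 9.03 CPM in Z5, 10.4 CPM in Z9 and 13.7 CPM in Empty (-0.61 ± 0.11, edgeR adjusted p = 5.25e-04). MOGAT2, a monoacylglycerol acyltransferase, was lower as well (-0.37 ± 0.07, adjusted p = 0.0013), and GK, glycerol kinase, was higher (0.16 ± 0.05, adjusted p = 0.0252, up to 0.203 without Empty a, Empty b or Z5 b).

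Of 19 genes of citrate, acetyl-CoA and NADPH supply, 3 were higher and 5 lower (median log2 fold change -0.03). PC, pyruvate carboxylase, averaged 132 CPM in Z2, 137 CPM in Z5, 137 CPM in Z9 and 110.2 CPM in Empty (log2 fold change 0.30 ± 0.05, edgeR adjusted p = 2.42e-04). IDH1, the cytosolic isocitrate dehydrogenase that yields NADPH, averaged 427 CPM in Z2, 429 CPM in Z5, 361 CPM in Z9 and 495 CPM in Empty (-0.29 ± 0.06, adjusted p = 0.00168). ACSS3, a mitochondrial short-chain acyl-CoA synthetase, was lower (-0.24 ± 0.04, edgeR adjusted p = 2.85e-04). Of 13 genes of SREBP processing, 2 were higher and 1 lower (median 0.06). TMEM97 averaged 83.7 CPM in Z2, 97.2 CPM in Z5, 71.6 CPM in Z9 and 108 CPM in Empty (-0.37 ± 0.05, edgeR adjusted p = 4.71e-05). INSIG1, which holds SREBP in the endoplasmic reticulum, had 75 counts in the 3 Z2 libraries, 66 in Z5, 48 in Z9 and 5 in Empty, all under 0.5 CPM. It is 1 of the 2 counted as higher (edgeR adjusted p = 2.47e-04), but whether its very low counts come from the annotation used for counting could not be checked, and no fold change is given. RNF139 passed narrowly (0.12 ± 0.04, adjusted p = 0.0479, up to 0.176 without any Empty, Z5 or Z9 well).

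Of 28 listed regulators of lipid synthesis, 3 were higher and 6 lower (median log2 fold change -0.04). The list joins transcription factors and coactivators with the signalling genes INSR, IRS1, IRS2, AKT2 and MTOR. IRS2, 1 of the 3 higher, averaged only 0.353 CPM in Z2, 0.275 CPM in Z5, 0.300 CPM in Z9 and 0.112 CPM in Empty (edgeR adjusted p = 0.0128, 0.0854 without Empty c). PPARGC1A, a coactivator of oxidative genes, averaged 38.3 CPM in Z2, 36.2 CPM in Z5, 39.1 CPM in Z9 and 26.7 CPM in Empty (log2 fold change 0.50 ± 0.08, edgeR adjusted p = 1.81e-04). PPARGC1B, a coactivator that can act with SREBP, averaged 2.86 CPM in Z2, 2.69 CPM in Z5, 2.86 CPM in Z9 and 4.20 CPM in Empty (-0.58 ± 0.09, adjusted p = 1.99e-04). NR0B2, an orphan nuclear receptor that represses transcription, was lower (-0.45 ± 0.07, edgeR adjusted p = 1.91e-04). Of 13 genes that control acetyl-CoA carboxylase (median -0.03), 2 were higher (MID1 at 0.44 ± 0.12, edgeR adjusted p = 0.011, and HLCS at 0.14 ± 0.05, adjusted p = 0.0421) and 2 lower (BRCA1 at -0.22 ± 0.07, adjusted p = 0.0242, and STK11 at -0.23 ± 0.07, adjusted p = 0.0305). Each of these 4 was lost without Empty a, with adjusted p up to 0.0634 for MID1, 0.344 for HLCS, 0.228 for BRCA1 and 0.127 for STK11 over all single wells left out. Of 10 genes of mitochondrial fatty acid synthesis (median -0.01), 0 were higher and 2 lower, MCAT (-0.21 ± 0.06, edgeR adjusted p = 0.0181) and NDUFAB1 (-0.13 ± 0.04, adjusted p = 0.0391). Both were lost without Empty a or Empty c, among others, with adjusted p up to 0.122 for MCAT and 0.120 for NDUFAB1.

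Wells of a line differed little for most members. The median over the 4 lines of the coefficient of variation between wells had a median of 5.83% over the 32 tested members, and ranged from 1.11% for ELOVL1 to 14.9% for AGPAT2, followed by GPAM at 14.1% and ACSS2 at 13.6%. In bulk RNA, fewer cells of a type and less RNA per cell cannot be told apart.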

How the data were processed

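RNA was sequenced from 12 libraries of 4 HepG2 lines, 3 wells each. The authors deposited 1 table of whole-number read counts per gene symbol. Alignment to hg38 and counting used STAR and featureCounts, per the submitters' processing notes. Versions, annotation, strand setting and multi-mapping rule: not given in the sources used here. Counts of overlapping genes are uncertain for that reason. Samples were grouped by title.

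From these counts, edgeR 4.0.16 in R 4.3.3 kept 15289 of 26485 genes with filterByExpr, scaled libraries by TMM and fitted 1 quasi-likelihood model with 4 line means to all 12 libraries (8 residual degrees of freedom). Benjamini-Hochberg adjustment ran over all genes of a comparison, with a threshold of 0.05. Levels are CPM on scaled library totals, and errors of log2 fold changes are SE. Alternatives were DESeq2 1.42.0, its size factors, other filters on low counts, a block on the replicate letter, fits of only the lines compared, lines as units, and fits without 1 library at a time. The script was tested on simulated data.

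The chi-square between wells of the same line was 6.01 to 43.0 per degree of freedom, where sampling alone gives 1, and no library repeats another. Replicate letters were not used as a block, since they are not stated to mark a shared day. Wells a deviated together across lines, and wells b and c did not in every pair.

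The members and the other gene lists were chosen with earlier results of these data known. Values in every well are given for members called in at least 1 comparison with Empty, up to the 14 with the smallest adjusted p, plus ACLY, ACACA, FASN, SCD, SREBF1 and MLXIPL. From each other list, up to 3 genes with the smallest adjusted p in the mean comparison are named. HLCS and IRS2 are named outside that rule, after their values were seen. Of the cell division list, MKI67 (log2 fold change -0.48), CDC20 (-0.40) and BIRC5 (-0.45) had the smallest adjusted p, and of the hepatocyte list ALB (-0.59), FGB (0.26) and SERPINA1 (0.28), all from edgeR for the mean of the labelled lines against Empty. Leukocyte, endothelial and adipocyte lists had 2 tested genes each and 0 called. The fibroblast list had 1 tested gene, COL1A1, called lower at under 1 CPM (-0.70, edgeR adjusted p = 0.042). Promoter windows are from RefSeq (GRCh38.p14).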

Additional observations from a re-analysis of the deposited data

Results flagged for a closer look

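The effects of 2 labelled lines against Empty differed for 10 members by the edgeR test of the difference itself, and in each case Z9 was the lower line. From Z2, the log2 difference of Z9 was -0.32 for ACLY, -0.59 for ACSS2, -0.34 for ELOVL6, -0.34 for SCD, -0.45 for ACSL3, -0.46 for ACSL4 and -0.39 for PNPLA3. From Z5, it was -0.45 for ACLY, -0.74 for ACSS2, -0.31 for ELOVL6, -0.29 for HSD17B12, -0.42 for SCD, -0.28 for FADS1, -0.45 for FADS2, -0.41 for ACSL3, -0.52 for ACSL4 and -0.60 for PNPLA3. No member passed that test between Z5 and Z2.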

How the results depend on the processing

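Over 4032 combinations of a member, a comparison and an alternative, 3810 kept the direction of any call and the side of the threshold, 145 lost a call, 77 gained one and 0 reversed. The 3810 include members called neither in the main fit nor in the alternative, so they do not measure how stable the calls are. The letters met the rule for pairing (every same-letter pair correlating over 0.1) for wells a and not for b or c: deviations correlated at 0.110 to 0.379 among the 6 pairs of a wells, with 1 of 6 pairs over 0.1 for b and 3 of 6 for c (-0.285 to 0.290 for c). Wells with different letters had a median of -0.071. The 4 of 12 wells that correlated best with their own letter were the wells with the letter a. The letters are not stated to mark a shared day, so the letter was not used as a block in the reported fits. A shift shared by the a wells thus stays in their spread between wells. With the letter as a replicate block, 8 members were called in Z5 against Empty (5 without it), 19 in Z9 (16), 12 in Z2 (9) and 11 for the mean (10), and Z9 differed from Z2 in 10 (7) and from Z5 in 12 (10). Fitting the compared lines alone gave 9 members in Z5 against Empty and 3 for Z9 minus Z2. With lines as units, 3 members passed for the mean. Leaving out each library in turn gave 7 to 11 members in Z2, 2 to 8 in Z5, 9 to 18 in Z9 and 6 to 11 for the mean against Empty, 2 to 9 for Z9 minus Z2, 3 to 12 for Z9 minus Z5, and 0 for Z5 minus Z2. For Z5 the count was 3 without Empty a, Empty b or Z9 b, 2 without Z5 b or Z5 c, and 8 without Z2 b. The Z9 count was 9 without Empty b or Z9 a and 10 without Empty c, and for the mean 6 without Empty b. Fewer wells in a fit also leave fewer degrees of freedom, and no other cause of these shifts was tested. Except for lines as units, the share of all genes called in these fits is not given here. The counts are therefore not read as shifts particular to the members. The intervals cover wells of 1 line each. ME1, SCD5 and THRSP had too few counts to be tested. Whether their low counts come from depth or from the annotation and rules used for counting was not tested.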
